A study of Mus musculus with 96 samples.

Results

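Gli1, Gli2 and Gli3, the zinc finger transcription factors that carry the Hedgehog signal into the nucleus, were followed together with 7 genes listed as their regulators. These were Sufu, Kif7, Spop, Btrc, Gpr161, Stk36 and Ulk3. These 10 genes were taken by symbol for their known roles, out of 22446 genes with a coding transcript in the deposited table, and each was represented by the transcript with the highest total coding count. The question was what happens to their mRNA and to the ribosomes on it when a core translation initiation factor is reduced in the embryo. Mutant embryos were heterozygous for the Xs-J allele of Eif3c on the C3HeB background (C3HeB/Eif3cXs-J/+), so a wild-type copy of the gene remained in every cell, and the labels do not describe the lesion. Wild-type embryos were C3HeB. Both genotypes were taken at E11.5, a midgestation stage. Neural tubes of 1 litter made a pool, the papain-dissociated cells were divided between an RNA library and a ribosome footprint library, and each genotype had 3 pools, which gave 12 libraries. Footprints are the mRNA fragments that a ribosome shields from nuclease, here 28 to 31 nt long, and the RNA libraries hold poly(A) mRNA cut into fragments of 30 to 50 nt. The labels do not say whether a mutant and a wild-type pool of the same number shared a litter, and the p-values below measure the spread between these pools.

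Eif3c itself, which encodes a core subunit of the initiation factor eIF3, was checked first. Its RNA level was 295 ± 6.18 CPM (counts scaled to library size) in mutant pools and 496 ± 22.2 CPM in wild-type pools (SD, n = 3 each), a log2 difference of -0.75 ± 0.06 (SE, edgeR adjusted p = 0.000695). Its coding footprints fell by 0.98 ± 0.07 on the log2 scale (edgeR adjusted p = 0.0013). Coding counts per library were 9581157 to 13120490 in mutant RNA and 7206203 to 13147978 in wild-type RNA. In footprint libraries they were 11320747 to 14855655 in mutant pools and 17293386 to 59253160 in wild-type pools. All 6 neural progenitor markers and all 6 neuronal markers were detected in every RNA library. The summed neuronal markers reached 3010 to 3630 CPM in mutant pools, below the 3810 to 3900 CPM of wild-type pools, while the progenitor markers overlapped (1650 to 2090 CPM for mutant and 1830 to 1990 CPM for wild-type libraries). The 8 erythroid markers summed to 6300 CPM in mutant pool 1 and to 2700 to 3360 CPM in the other 5 pools, and the 6 endothelial markers to 480 CPM in mutant pool 1 and 287 to 345 CPM in the others. Of the 4 notochord markers, 3 were detected in every RNA library, and Noto was at 0 in every one. Their sum overlapped between genotypes, with wild-type libraries at 38.9 to 51.3 CPM and mutant libraries at 47.6 to 72.2 CPM. In whole tissue, fewer cells of a type and less RNA per cell cannot be told apart, and the part of these cell markers in the values below was not tested.

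In vertebrates, Hedgehog ligand frees Smoothened to act at the primary cilium, where the fate of the Gli proteins is decided. Without ligand, the ciliary receptor Gpr161 keeps cyclic AMP and protein kinase A active. Kinases then mark Gli3, and to a lesser degree Gli2, for the ubiquitin ligase adaptor Btrc, and Gli3 is cut down to a repressor. With ligand, full-length Gli2 acts as the main activator and switches on Gli1, which is itself a target of the pathway. Sufu binds all Gli proteins and restrains them, Kif7 is a kinesin that orders the cilium tip, and Spop brings full-length Gli2 and Gli3 to a cullin ligase. In the neural tube, Gli activators pattern the ventral side, near the Shh of notochord and floor plate, and the Gli3 repressor shapes intermediate and dorsal fates.

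Footprints were compared on either side of the start codon, so the start codons of the 10 coding sequences are shown first, with 9 bases before and 3 after. The capitals mark the ATG, and the letters are those of the GENCODE vM21 transcript on which each gene was counted.
Gli1: tgagacgccATGttc
Gli2: gcctctgagATGgag
Gli3: gaagacattATGgag
Sufu: cgcgccccaATGgcg
Kif7: tccttcaagATGggg
Spop: aaactggcgATGtca
Btrc: cgggcgattATGgac
Gpr161: agttggactATGgac
Stk36: acccttgccATGgaa
Ulk3: gggcgcgggATGgct
A purine stood 3 bases before the ATG in every gene but Sufu, and 86.8% of the genes tested for their 5′ UTR footprints had one. A G followed the ATG directly in every gene but Gli1 and Spop, and 53.2% of those genes had one.

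Upstream ATGs, which can hold ribosomes before the main start, lay in the 5′ UTRs of the counted transcripts of the 3 Gli genes, Spop and Stk36. The Gli1 5′ UTR of 556 nt had 1, the Gli2 5′ UTR of 349 nt had 4 and the Gli3 5′ UTR of 173 nt had 2. Spop had 9 in 373 nt, and Stk36 had 2 in 258 nt. The 5′ UTR values of Spop, here and below, are those of 1 of 2 transcripts tied in coding count, and the other was not examined. Sufu, Kif7, Btrc, Gpr161 and Ulk3 had 0 in 207, 80, 88, 93 and 133 nt. That Gpr161 5′ UTR held 1 RNA count over mutant pools and 1 over wild-type pools. Another Gpr161 transcript, with 3 upstream ATGs in a 5′ UTR of 231 nt, held 38 and 54 RNA counts there. The 0 for Gpr161 therefore applies to the counted transcript only. Among 10409 genes with a 5′ UTR sequence, 53.1% had at least 1 upstream ATG, 12.2% had at least 4 and 2.22% had at least 9, with a median 5′ UTR of 195 nt. The upstream ATGs of the Gli genes are printed with the same flanks, apart from the first of Gli2, which starts at the second base of the transcript.
Gli1, 82 bases before the start codon: gaggttgggATGaag
Gli2, 103 bases before: caagttgggATGggg
Gli2, 59 bases before: gccacctgcATGcta
Gli2, 13 bases before: ccaaagagtATGagc
Gli3, 156 bases before: cgccacaccATGccc
Gli3, 13 bases before: gctgaagtaATGaga
The Gli1 reading frame ran 38 codons and overlapped the coding sequence out of frame, as did 1 of the 4 frames of Gli2, with 60 codons, and 1 of the 2 of Gli3, with 15 codons. An overlapping upstream frame was present in 16.5% of the genes with sequence. The other frames of Gli2 and Gli3, and all frames of Spop and Stk36, ended before the main start.

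Coding levels, as CPM per kilobase of counted coding sequence, set Spop highest in RNA and Sufu highest in footprints. In RNA, Spop averaged 95.7 in mutant pools and 92.2 in wild-type pools, and Gli3, Btrc and Sufu followed between 35.6 and 39.6 in mutant pools and between 35.8 and 41.9 in wild-type pools. Neighbours in that middle group overlapped, except that Btrc lay above Gli3 in wild-type pools. Gpr161 stood at 24.1 in mutant pools and 28.8 in wild-type pools. Gli2 and Stk36, which overlapped, lay between 16.4 and 16.7 in mutant pools and between 15.8 and 17.7 in wild-type pools. Kif7, Gli1 and Ulk3 closed the order, at 10.2, 8.02 and 7.72 in mutant pools and 9.61, 6.82 and 6.82 in wild-type pools, and neighbours in this group overlapped, except that Kif7 lay above the other two in wild-type pools. In footprints the order was Sufu, Btrc, Spop, Gli3 in both genotypes, and Ulk3 and Gli1 were the lowest. Gli2 stood above Gpr161 in mutant pools, at 14.3 and 12.3, and below it in wild-type pools, at 11.2 and 14.3, without overlap between the 2 genes in either genotype. Ranks 6 and 7 overlapped in both genotypes (Gpr161 with Stk36 in mutant pools, Gli2 with Stk36 in wild-type pools).

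**Figure D1:**
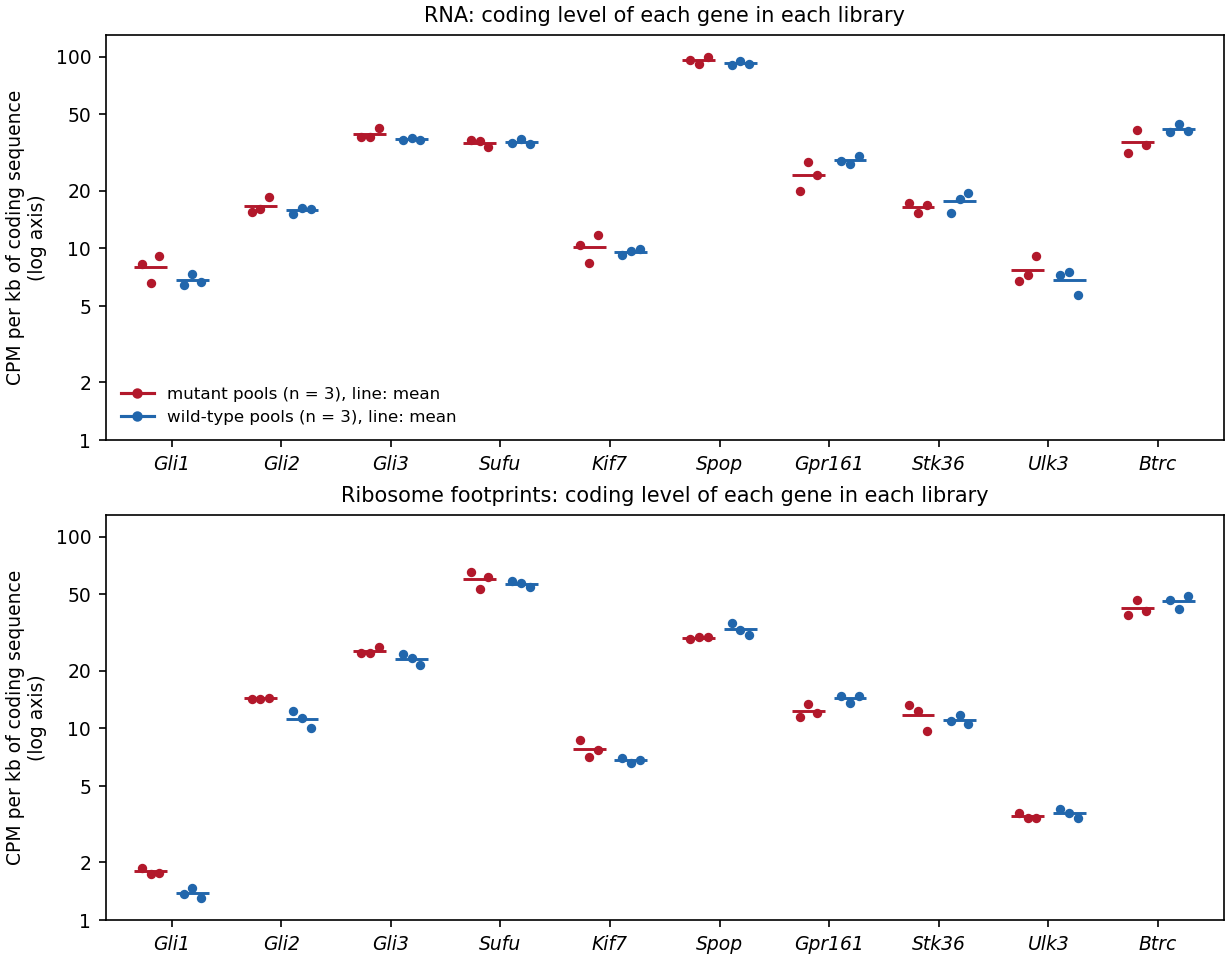
Coding level of each gene in every library, in CPM per kb of coding sequence on a log axis, with RNA above and ribosome footprints below, mutant pools in red and wild-type pools in blue, and a line at each mean of 3 pools. Gli1 lies at 8.02 in mutant RNA and 6.82 in wild-type RNA, but at 1.8 in mutant footprints and 1.38 in wild-type footprints, the lowest of the 10 genes.

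None of the 10 genes passed the threshold of 0.05 on the adjusted p in RNA, in coding footprints or in footprints per mRNA, and none of the 8 tested did so in the ratio of 5′ UTR to coding footprints. In RNA, edgeR called 43 of 13422 genes (0.32%), with 0 of 10 members. At an unadjusted p under 0.05, 2 of 10 members passed, Gpr161 and Btrc, both lower, against 17.3% of all genes in either direction and 9.31% lower. DESeq2 (2.95% of genes called) and limma-voom (0.313%) also called no member in RNA, where DESeq2 gave no adjusted p for Ulk3. The members' median RNA difference was 0.07 on the log2 scale, against 0.01 over all genes tested, with 6 of 10 above 0 and 52.6% of all genes above 0. In coding footprints, edgeR called 34 of 13438 genes (0.253%) and again 0 of 10 members. Here Gli1 and Gli2, both higher, had an unadjusted p under 0.05, against 22.8% of all genes in either direction and 11.7% higher. DESeq2 called 1 of 10 members, Gli2, against 6.12% of all genes, and limma-voom 0 of 10 (0.967% of genes called). The members' median was 0.09, against 0.01 over all genes, with 6 of 10 above 0 and 52.4% of all genes above 0.

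**Figure D2:**
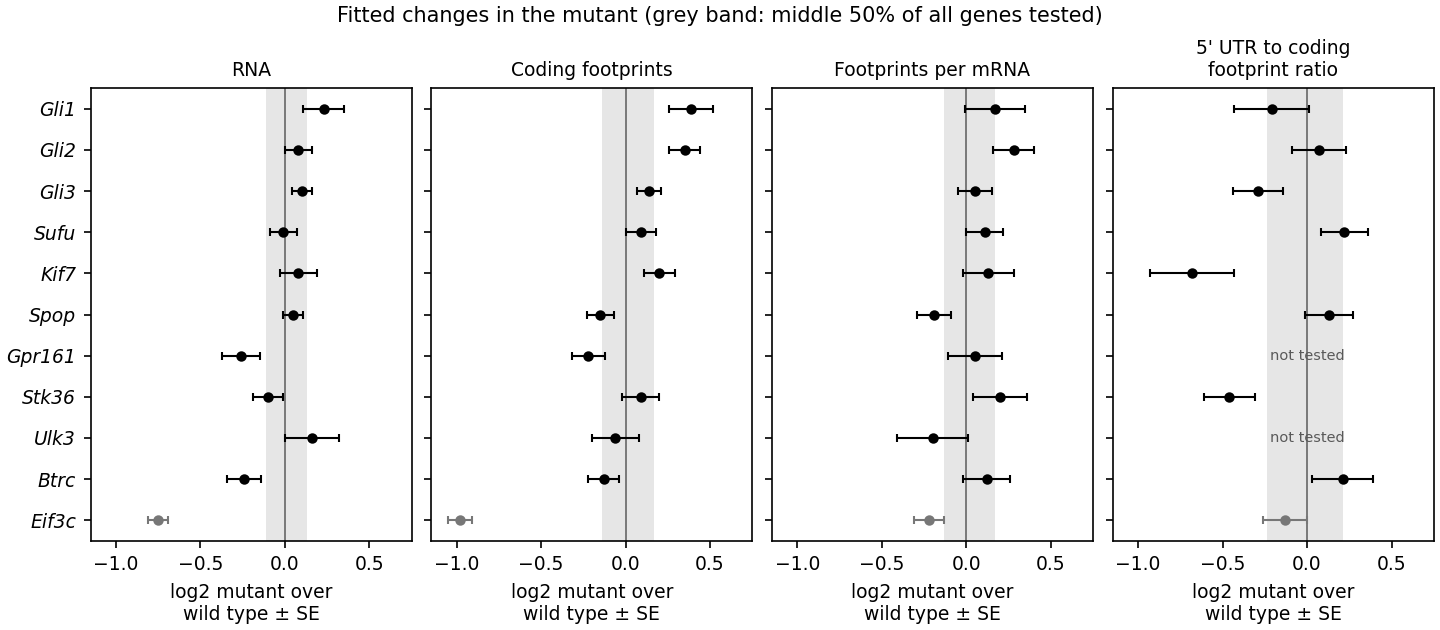
Fitted log2 difference, mutant over wild type, with its SE, in RNA, coding footprints, footprints per mRNA and the ratio of 5′ UTR to coding footprints. The grey band holds the middle 50% of all genes tested, and Eif3c, at -0.75 in RNA and -0.98 in footprints, is drawn below the 10 genes, whose RNA and footprint differences lie between -0.26 and 0.39.

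Gli2 (ENSMUSG00000048402.14, chr1:118834132-119053619, minus strand, mm10), the main activator, had overlapping RNA levels, and more footprints in every mutant pool than in any wild-type pool. Its RNA was 15.5, 16.0 and 18.5 CPM per kb in mutant pools 1, 2 and 3, against 15.1, 16.2 and 16.0 in wild-type pools 1, 2 and 3. Its footprints were 14.3, 14.3 and 14.4 CPM per kb in mutant pools, against 12.3, 11.3 and 10.1 in wild-type pools. The mutant pools lay close together and all above the wild-type pools in footprints, and the genotypes overlapped in RNA. The log2 difference was 0.35 ± 0.09 in footprints (SE, edgeR adjusted p = 0.0877) and 0.08 ± 0.08 in RNA (edgeR adjusted p = 0.66). Gli2 footprints passed with DESeq2 (adjusted p = 0.0173, with 822 of 13438 genes called, 6.12%, and 3.24% higher) and in edgeR without mutant pool 2 (0.34 ± 0.09, adjusted p = 0.0359, with 2336 of 13614 genes called, 17.2%, and 7.65% higher). Over all alternatives its adjusted p ran from 0.0173 to 0.344 and its log2 difference from 0.25 to 0.42.

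Gli1 (ENSMUSG00000025407.7, chr10:127329882-127341974, minus strand), activator and target of the pathway, was scarce in footprints in both genotypes. Its RNA was 8.3, 6.6 and 9.17 CPM per kb in mutant pools 1, 2 and 3, against 6.46, 7.32 and 6.67 in wild-type pools. Its footprints were 1.88, 1.75 and 1.77 CPM per kb in mutant pools, from 69, 70 and 87 counted footprints, against 1.37, 1.47 and 1.3 in wild-type pools, from 265, 83 and 139. All mutant pools lay above all wild-type pools in footprints, while in RNA mutant pool 2 lay among the wild-type pools. The log2 difference was 0.39 ± 0.13 in footprints (SE, edgeR adjusted p = 0.148) and 0.23 ± 0.12 in RNA (edgeR adjusted p = 0.359). The 4 incomplete lanes of mutant pool 1 held counts on 2 to 3 of 20 chromosomes, so keeping them in adds counts only for genes there. In that fit the Gli1 footprint difference was 0.76 ± 0.27 (edgeR adjusted p = 0.212, range over the alternatives 0.0846 to 0.431). Exons of Gm47200 and Arhgap9 on the other strand share 265 and 62 bases with the Gli1 transcript, and the strand setting of the counting is not given in the sources used here.

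Gli3 (ENSMUSG00000021318.15, chr13:15463235-15730026, plus strand), the source of the repressor, was the highest of the 3 Gli genes in both assays. Its RNA was 38.1, 38.1 and 42.6 CPM per kb in mutant pools, against 36.7, 37.6 and 36.7 in wild-type pools. Its footprints were 24.6, 24.7 and 26.7 CPM per kb in mutant pools, against 24.5, 23.2 and 21.5 in wild-type pools. Mutant pools lay above wild-type pools in both assays, by a narrow margin. The log2 difference was 0.10 ± 0.06 in RNA (SE, edgeR adjusted p = 0.457) and 0.14 ± 0.07 in footprints (edgeR adjusted p = 0.297).

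Within each library the 3 Gli genes were set against each other, as shares of their summed CPM per kb. In RNA, Gli1, Gli2 and Gli3 made up 12.4%, 25.9% and 61.7% in mutant pools and 11.4%, 26.4% and 62.1% in wild-type pools. In footprints, the shares were 4.34%, 34.6% and 61.1% in mutant pools and 3.88%, 31.4% and 64.7% in wild-type pools. The Gli2 footprint share was 35.1%, 35.1% and 33.6% in mutant pools 1, 2 and 3, against 32.2%, 31.4% and 30.7% in wild-type pools, and the Gli3 share was 60.3%, 60.6% and 62.3%, against 64.2%, 64.5% and 65.3%. The Gli1 footprint share was 4.61%, 4.29% and 4.13% in mutant pools, against 3.59%, 4.09% and 3.95% in wild-type pools. None of the 3 shares overlapped between genotypes in footprints, with Gli1 and Gli2 higher and Gli3 lower in mutant pools, and all 3 overlapped in RNA. For Gli1 the margin was narrow, 4.13% in mutant pool 3, from 87 counted footprints, against 4.09% in wild-type pool 2, from 83. By coding footprint level, 14.4% of all genes lay higher in all mutant pools and 14.8% lower. How often such shares separate for other genes was not examined. Shares sum to a fixed total, so a higher share of 1 gene goes with a lower share elsewhere. In both genotypes Gli1 held a smaller share of footprints than of RNA, and Gli2 a larger one.

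**Figure D3:**
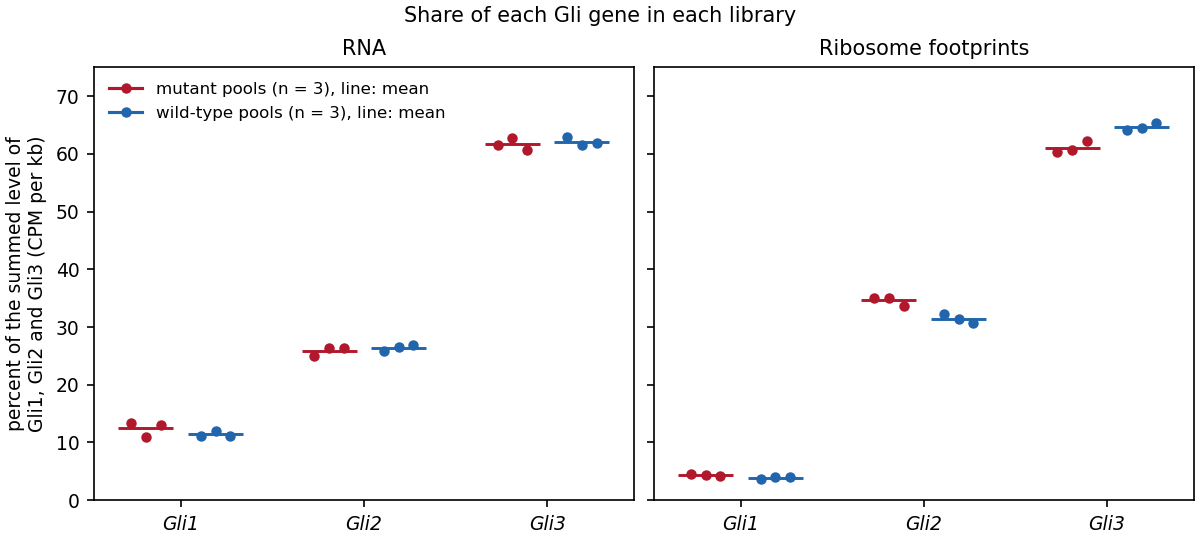
Share of Gli1, Gli2 and Gli3 in their summed CPM per kb, in percent, for each library, with RNA on the left and ribosome footprints on the right, mutant pools in red left of wild-type pools in blue, and a line at each mean of 3 pools. Gli2 lies at 33.6% to 35.1% of footprints in mutant pools and at 30.7% to 32.2% in wild-type pools.

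Genes whose variation between pools was most like that of each Gli gene were named by the mean absolute difference of log2 CPM over the 12 libraries, among 12624 genes. The log2 values were centred within the RNA and within the footprint libraries, so the measure compares how a gene varied between pools in each assay, not its level or its footprints per mRNA. For Gli1 these were Six5 (0.0494), Wdr90 (0.0508) and Irx3 (0.0547), against a median of 0.196 over all genes. For Gli2 they were Six5 (0.0548), B3galnt2 (0.0551) and Klhdc4 (0.0563), against a median of 0.169, and for Gli3 they were Uck2 (0.0355), Ttll4 (0.0369) and Sox2 (0.0377), against 0.133. Six5 appears for both Gli1 and Gli2. The named genes are those of the smallest difference, so lying below these medians follows from how they were picked.

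Kif7 (ENSMUSG00000050382.14, chr7:79698098-79715720, minus strand) lay higher in footprints in every mutant pool, and Sufu (ENSMUSG00000025231.17, chr19:46396896-46488804, plus strand) overlapped. Kif7 footprints were 8.67, 7.12 and 7.74 CPM per kb in mutant pools, against 6.98, 6.61 and 6.84 in wild-type pools, and its RNA was 10.4, 8.4 and 11.7, against 9.27, 9.66 and 9.89. Its footprints did not overlap, its RNA did, and the log2 differences were 0.20 ± 0.09 in footprints (SE, edgeR adjusted p = 0.235) and 0.08 ± 0.11 in RNA (edgeR adjusted p = 0.75). Kif7 footprints stood at 0.06 ± 0.08 with offsets for coding GC content and at 0.12 ± 0.08 without mutant pool 1. Exons of 9330171B17Rik and Ticrr on the other strand share 877 and 51 bases with the Kif7 transcript. Sufu RNA was 36.6, 36.3 and 33.9 CPM per kb in mutant pools, against 35.3, 37.1 and 35.0 in wild-type pools, and its footprints were 65.7, 53.5 and 61.8, against 58.9, 57.0 and 54.3. Mutant pool 2 was the lowest of all 6 pools in Sufu footprints and mutant pool 1 the highest. The log2 difference was -0.01 ± 0.08 in RNA (edgeR adjusted p = 0.965) and 0.09 ± 0.09 in footprints (edgeR adjusted p = 0.555).

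The 2 ubiquitin ligase adaptors had lower mutant means, Spop in footprints and Btrc in both assays, and neither passed the test. Spop (ENSMUSG00000057522.15, chr11:95414080-95493406, plus strand) had footprints of 29.3, 29.8 and 30.0 CPM per kb in mutant pools, against 35.4, 32.5 and 30.7 in wild-type pools, and RNA of 95.8, 91.8 and 99.6, against 90.6, 94.8 and 91.3. Footprints of all mutant pools lay below those of wild-type pools while RNA overlapped, and the log2 difference was -0.15 ± 0.08 in footprints (SE, edgeR adjusted p = 0.319) and 0.05 ± 0.06 in RNA (edgeR adjusted p = 0.709). Spop footprints stood at -0.05 ± 0.10 with the 4 incomplete lanes kept in, which add counts only for genes on 2 to 3 of 20 chromosomes. Without wild-type pool 1 the Spop footprints stood at -0.09 ± 0.10. Btrc (ENSMUSG00000025217.15, chr19:45363734-45530013, plus strand) had RNA of 31.4, 41.2 and 34.6 CPM per kb in mutant pools, against 40.6, 44.3 and 40.7 in wild-type pools. Its footprints were 38.9, 46.9 and 41.0 CPM per kb in mutant pools, against 46.8, 42.0 and 49.3 in wild-type pools. Mutant pool 2 lay within the wild-type range in both assays and mutant pools 1 and 3 lay below it. The log2 difference was -0.24 ± 0.10 in RNA (edgeR adjusted p = 0.239) and -0.13 ± 0.09 in footprints (edgeR adjusted p = 0.432).

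Gpr161 (ENSMUSG00000040836.15, chr1:165295789-165326745, plus strand), the ciliary receptor that keeps protein kinase A active, had the same pattern in RNA. Its RNA was 20.0, 28.1 and 24.2 CPM per kb in mutant pools, against 28.5, 27.6 and 30.3 in wild-type pools, and its footprints were 11.4, 13.4 and 12.1, against 14.7, 13.6 and 14.7. RNA of mutant pool 2 lay within the wild-type range and that of mutant pools 1 and 3 below it, and in footprints all mutant pools lay below all wild-type pools. The log2 difference was -0.26 ± 0.11 in RNA (SE, edgeR adjusted p = 0.27) and -0.22 ± 0.10 in footprints (edgeR adjusted p = 0.225). Without mutant pool 2, Gpr161 RNA (-0.38 ± 0.10, edgeR adjusted p = 0.0272) and Btrc RNA (-0.35 ± 0.08, edgeR adjusted p = 0.0147) passed, as did 1522 of 13594 genes (11.2%, and 7.11% lower). Without mutant pool 1, the pool of high erythroid markers, Gpr161 RNA stood at -0.14 ± 0.10 and Btrc RNA at -0.15 ± 0.09, with edgeR adjusted p of 0.592 and 0.491. Over all alternatives the adjusted p in RNA ran from 0.0272 to 0.592 for Gpr161 and from 0.0147 to 0.531 for Btrc.

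The kinases overlapped in both assays. Stk36 (ENSMUSG00000033276.18, chr1:74601445-74636894, plus strand), the mouse relative of the fly Hedgehog kinase Fused and in the mouse a gene of motile cilia, had RNA of 15.3 to 17.2 CPM per kb in mutant pools and 15.3 to 19.5 in wild-type pools, and footprints of 9.69 to 13.3 and 10.6 to 11.7. Ulk3 (ENSMUSG00000032308.9, chr9:57589452-57596233, plus strand), a kinase that acts on Gli proteins in cultured cells, had RNA of 6.8 to 9.09 in mutant pools and 5.74 to 7.49 in wild-type pools, and footprints of 3.43 to 3.61 and 3.43 to 3.79. Ulk3 had the fewest RNA counts of the 10 genes, 94 to 125 in mutant pools and 56 to 133 in wild-type pools. The log2 differences lay between -0.10 ± 0.09 (Stk36, RNA) and 0.16 ± 0.16 (Ulk3, RNA).

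Mutant and wild-type pools did not overlap for 6 of the 10 genes in footprints and for 1 in RNA. In coding footprints, 4 of 10 members (Gli1, Gli2, Gli3 and Kif7) lay higher in all mutant pools, against 14.4% of all genes, and 2 of 10 (Spop and Gpr161) lay lower in all, against 14.8%. In RNA, 1 of 10 (Gli3) lay higher, against 10.9%, and 0 of 10 lay lower, against 11.2%. None of these 7 differences passed the adjusted p.

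Footprints per mRNA, the log2 ratio of footprint CPM to RNA CPM with 0.5 CPM added to each, differed widely among the 10 genes in both genotypes. Gli1 was the lowest. Its log2 ratio was -2.06, -1.83 and -2.28 in mutant pools 1, 2 and 3, against -2.12, -2.20 and -2.23 in wild-type pools, and the wild-type mean of -2.18 ± 0.06 (SD, n = 3) lay at percentile 2.92 of 13893 genes. Spop came next, at -1.69, -1.61 and -1.71 in mutant pools, against -1.35, -1.53 and -1.56 in wild-type pools, at percentile 8.52 in wild type. Gpr161, Ulk3, Gli3, Stk36, Gli2 and Kif7 had wild-type means between -0.99 and -0.49, below the all-gene median of -0.08. Btrc, at 0.24 in mutant pools and 0.13 in wild-type pools, and Sufu, at 0.75 in mutant pools and 0.66 in wild-type pools, lay above that median, Sufu at percentile 88.0 in wild type. As a linear ratio of footprint CPM to RNA CPM, the wild-type means were 1.58 for Sufu and 0.22 for Gli1.

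**Figure D4:**
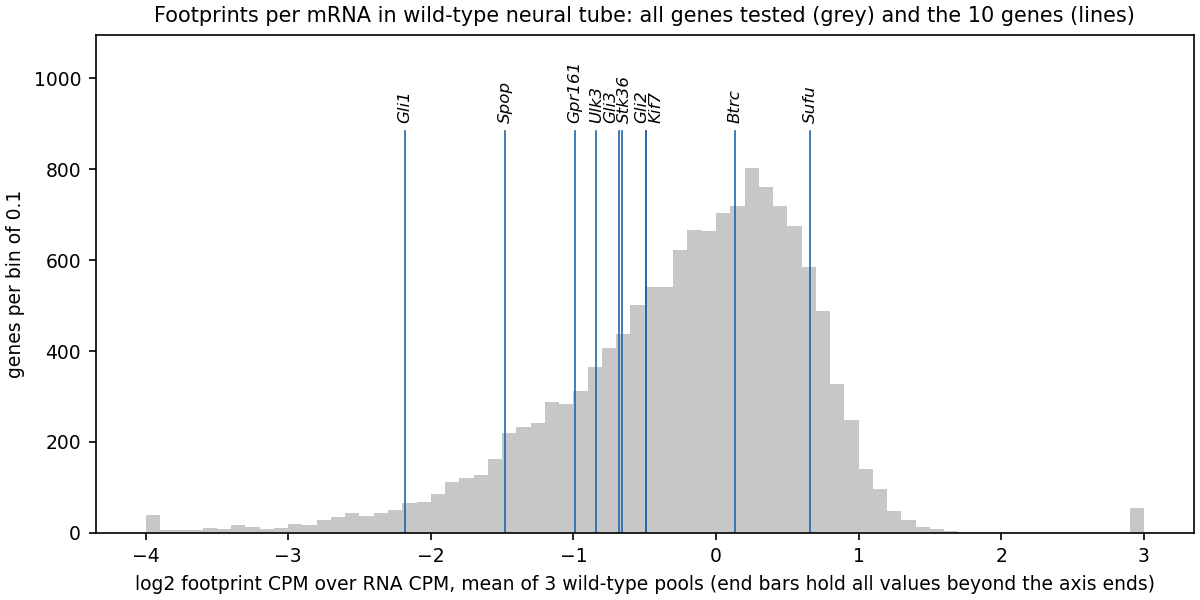
Distribution of the log2 ratio of footprint CPM to RNA CPM over 13893 genes, as the mean of 3 wild-type pools, in bins on a linear axis, with a line for each of the 10 genes. Gli1 at -2.18 and Spop at -1.48 lie in the lower tail, and Btrc at 0.13 and Sufu at 0.66 lie above the median of -0.08.

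Between genotypes, none of the 10 genes passed for footprints per mRNA, by the test of the interaction of genotype and assay. The edgeR fit called 0 of 13893 genes (0%), with 1365 genes (9.83%) at an unadjusted p under 0.05, while DESeq2 called 20 genes (0.144%), none of them a member, and limma-voom called 0. Gli2 was the member with an unadjusted p under 0.05, higher as were 5.75% of all genes, at a log2 difference of 0.28 ± 0.12 (SE, edgeR adjusted p = 0.471). Its log2 ratio was -0.12, -0.16 and -0.36 in mutant pools, against -0.29, -0.52 and -0.65 in wild-type pools, where mutant pool 3 lay within the wild-type range. Spop, at -0.19 ± 0.10 (edgeR adjusted p = 0.548), was lower in all mutant pools, 1 of 10 members against 12.1% of all genes, and 0 of 10 members were higher in all, against 10.7%. Each pool gave both of its libraries from 1 cell suspension, a pairing that the fit above does not use. With the pool as a block, edgeR called 125 of 13893 genes (0.9%), again with 0 of 10 members. In that paired fit Gli2 stood at 0.28 ± 0.10 (edgeR adjusted p = 0.158) and Spop at -0.19 ± 0.09 (edgeR adjusted p = 0.29). With offsets for coding GC content, Gli2 stood at 0.14 ± 0.13. Over all alternatives the adjusted p ran from 0.158 to 1 for Gli2. The members' median was 0.12, against 0.02 over all genes, with 8 of 10 above 0 and 53.9% of all genes above 0.

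The 5′ UTRs of Gli1 and Stk36, and of the Kif7 transcript counted here, held footprints at a high density in both genotypes. The Gli1 5′ UTR, with its upstream ATG printed above, held 46, 28 and 55 footprints in mutant pools 1, 2 and 3, or 66.7, 40.0 and 63.2 per 100 coding footprints, against 149, 43 and 78 in wild-type pools, or 56.2, 51.8 and 56.1 per 100. Per base, its density over that of the coding sequence was 3.34 ± 0.852 in mutant pools and 3.22 ± 0.15 in wild-type pools (SD, n = 3 each), at percentile 90.9 of 10904 genes in wild type. In the RNA libraries the same ratio for Gli1 was 0.588 ± 0.0977 in mutant pools and 0.506 ± 0.0865 in wild-type pools. Of the footprints on the Gli1 5′ UTR and coding sequence together, 40.0% lay in the 5′ UTR in mutant pool 1 (exact 95% interval 31.0% to 49.6%). The share was 28.6% (19.9% to 38.6%) in mutant pool 2 and 38.7% (30.7% to 47.3%) in mutant pool 3. In wild-type pools 1, 2 and 3 it was 36.0% (31.4% to 40.8%), 34.1% (25.9% to 43.1%) and 35.9% (29.6% to 42.7%), and the genotypes overlapped. These intervals cover counting error only.

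Kif7, with a 5′ UTR of 80 nt and 0 upstream ATGs, had a per-base ratio of 2.83, 1.72 and 2.58 in mutant pools, from 22, 12 and 24 5′ UTR footprints, against 3.31, 2.31 and 3.75 in wild-type pools, from 109, 21 and 67. Stk36 had 2.31, 1.85 and 2.42 in mutant pools, against 2.66, 2.37 and 2.59 in wild-type pools. Mutant pool 2 was the lowest of the 6 pools for both genes, and the genotypes overlapped in each. Another Kif7 transcript had the same coding count, and the tie was settled by the whole transcript count. On that transcript, with a 5′ UTR of 28 nt, the ratio was 2.79 ± 0.678 in mutant pools, from 24 footprints in all, and 2.43 ± 1.77 in wild-type pools, from 57. Gli2 stood at 2.04 ± 0.206 in mutant pools and 1.66 ± 0.23 in wild-type pools, and Gli3 at 1.77 ± 0.281 and 1.86 ± 0.231. Btrc (1.62 ± 0.328 in mutant pools, 1.21 ± 0.207 in wild-type pools), Spop (1.33 ± 0.206 and 1.03 ± 0.105) and Sufu (1.08 ± 0.0404 and 0.784 ± 0.0497) had wild-type means below the all-gene wild-type median of 1.23. Ulk3 had 15 5′ UTR footprints over all mutant pools and 44 over all wild-type pools. The Gpr161 transcript with the highest coding count had 0 5′ UTR footprints in both genotypes, and another Gpr161 transcript, with a 5′ UTR of 231 nt and 3 upstream ATGs, had 32 in mutant pools and 106 in wild-type pools. How a footprint that spans the start codon was assigned is not given in the sources used here.

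**Figure D5:**
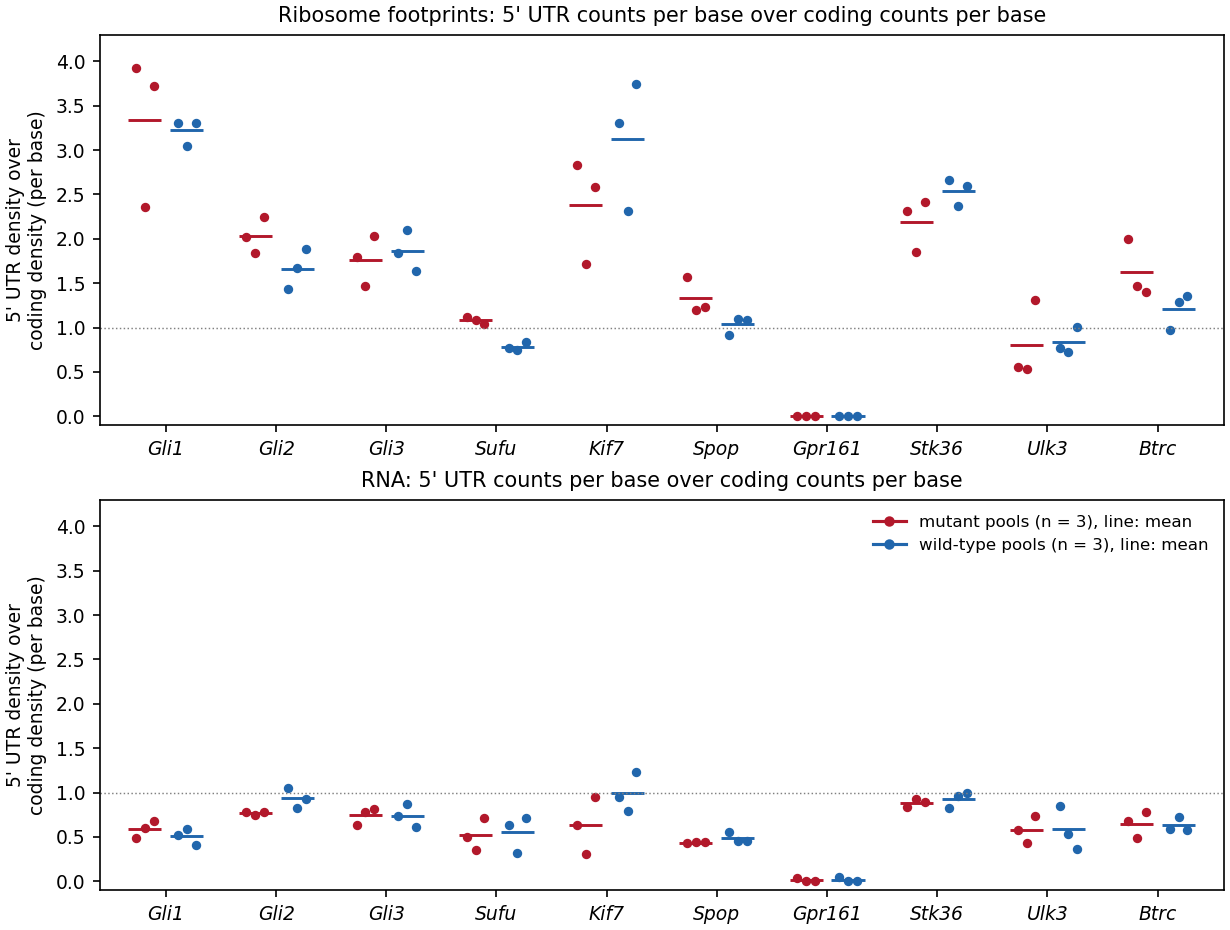
Counts per base of 5′ UTR over counts per base of coding sequence for each gene and library, with ribosome footprints above and RNA below, mutant pools in red left of wild-type pools in blue, lines at the means of 3 pools and a dotted line at 1. In footprints Gli1, Kif7 and Stk36 lie highest, with wild-type means of 3.22, 3.12 and 2.54, while the RNA ratios of all 10 genes have means below 1.

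The ratio of 5′ UTR to coding footprints was compared between genotypes relative to all genes, each part scaled to its own library size. Over whole libraries, 5′ UTR footprints per 100 coding footprints were 20.5, 16.9 and 19.8 in mutant pools 1, 2 and 3, against 16.6, 16.5 and 16.4 in wild-type pools. The edgeR fit called 648 of 10904 genes (5.94%), 398 higher and 250 lower, and 0 of the 8 members tested, and DESeq2 (433 genes, 3.97%) and limma-voom (695 genes, 6.37%) also called 0 of the 8. Gpr161 and Ulk3 did not pass the filter on low counts. Stk36 had a log2 difference of -0.46 ± 0.15 (SE, edgeR adjusted p = 0.0781) and Kif7 of -0.68 ± 0.25 (edgeR adjusted p = 0.108), and these 2 of 8 had an unadjusted p under 0.05, against 23.1% of all genes in either direction and 11.2% lower. With both parts scaled to the coding library size, Stk36 stood at -0.22 ± 0.17 and Kif7 at -0.42 ± 0.26. On its tied transcript Kif7 stood at -0.16 ± 0.44 (edgeR adjusted p = 0.861, range over the alternatives 0.0675 to 0.861), so its value depends on which transcript is counted. Over the 8 members the median was -0.07, against -0.01 over all genes, with 4 of 8 above 0 and 48.4% of all genes above 0. Gli3 followed at -0.29 ± 0.15 (edgeR adjusted p = 0.268), Gli1 at -0.21 ± 0.22 (edgeR adjusted p = 0.604) and Gli2 at 0.07 ± 0.16 (edgeR adjusted p = 0.813). Without scaling to the library, the ratios of Sufu, Spop and Btrc were higher in all mutant pools, 3 of 8 against 27.5% of all genes, and 0 of 8 were lower in all, against 3.23%. In the scaled fit these genes stood at 0.22 ± 0.14, 0.13 ± 0.14 and 0.21 ± 0.18, with edgeR adjusted p of 0.374, 0.635 and 0.512. Where both parts were scaled to the coding library size, the direction of Gli1 turned, to 0.04, and Gli3 stood at -0.06, Gli2 at 0.31, Spop at 0.36, Btrc at 0.44 and Sufu at 0.46. None of these passed, and the smallest edgeR adjusted p was 0.0718, for Sufu (range over its alternatives 0.0718 to 0.614).

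Other genes of the pathway were read from lists chosen with earlier results of these data known. Among 14 ligands, receptors and coreceptors, 0 of 12 tested passed in RNA, 0 of 13 in footprints, 0 of 13 in footprints per mRNA and 0 of 11 in the 5′ UTR ratio, by edgeR. The smallest footprint p-values there were those of Gas1, a coreceptor, at a mean of 70.8 CPM in the mutant and 42.2 CPM in the wild type (log2 difference 0.75 ± 0.14, edgeR adjusted p = 0.0628), and of Smo, the signal transducer, at 33.4 CPM and 23.9 CPM (0.49 ± 0.12, edgeR adjusted p = 0.0864). The list's median footprint difference was 0.16, with 11 of 13 above 0, against 52.4% of all genes. The smallest p-values elsewhere were those of Lrp2 (-0.24) and Boc (-0.23) in RNA, of Gas1 (0.71) and Smo (0.41) in footprints per mRNA, and of Shh (-0.51) and Scube2 (0.42) in the 5′ UTR ratio, on the log2 scale, with edgeR adjusted p of 0.0732 (Shh) to 0.431 (Smo).

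Among 22 genes under Gli control in the neural tube, 1 of 22 passed in RNA (0.32% of all genes) and in footprints (0.253%), and 0 of 22 passed in footprints per mRNA. That gene was Ccnd2, a D-type cyclin of cycling progenitors, at 375 CPM in mutant footprints and 182 CPM in wild-type footprints (log2 difference 1.04 ± 0.10, edgeR adjusted p = 0.00266). The list's median footprint difference was 0.21, with 19 of 22 above 0, against 52.4% of all genes, and its median RNA difference was 0.06, with 16 of 22 above 0, against 52.6%. The list was not divided by the direction in which Gli proteins act on each gene, so these counts do not measure Gli output. In the 5′ UTR ratio 0 of 18 passed, with a median of -0.22 against -0.01 over all genes, and the smallest p-values were those of Olig2 (-0.88 ± 0.27, edgeR adjusted p = 0.0577) and Dbx1 (-0.44 ± 0.14, edgeR adjusted p = 0.0781), transcription factors of ventral and intermediate progenitors. In RNA, Ccnd2 also passed (0.92 ± 0.12, edgeR adjusted p = 0.0349), and in footprints per mRNA Gas1 (0.71) and Ptch1 (0.36), the Hedgehog receptor, had the smallest p-values (edgeR adjusted p = 0.332 and 0.494). Gas1, Ptch1, Hhip, Boc and Cdon are among the genes that stand in both of these lists.

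Among 19 kinases, phosphatases and ubiquitin ligase parts that act on Gli proteins, 0 of 19 passed in RNA, footprints or footprints per mRNA. Their median footprint difference was -0.09, against 0.01 over all genes, with 5 of 19 above 0, against 52.4% of all genes. The smallest p-values were those of Csnk1e (-0.15) and Cul1 (0.13) in RNA, Prkacb (-0.38) and Gsk3b (-0.24) in footprints, and Gsk3a (0.19) and Usp7 (-0.20) in footprints per mRNA, with edgeR adjusted p of 0.0826 (Prkacb) to 0.575 (Usp7). In the 5′ UTR ratio 3 of 17 rose, against 3.65% of all genes called higher. These were Csnk1a1, Skp1a and Prkaca. Csnk1a1, a casein kinase that acts on Gli proteins, stood at 0.63 ± 0.13 (edgeR adjusted p = 0.0086). Skp1a, a core part of the ligase that uses Btrc, stood at 0.57 ± 0.12 (edgeR adjusted p = 0.0133). Prkaca, a catalytic subunit of protein kinase A, stood at 0.55 ± 0.14 (edgeR adjusted p = 0.0295). Among 15 genes that handle Smo and Gli proteins at the cilium, 1 of 11 rose in that ratio, Grk2, the kinase that phosphorylates Smo (0.95 ± 0.16, edgeR adjusted p = 0.00369), and 0 of 15 passed in the other comparisons. There the smallest p-values were those of Mgrn1 (-0.17) and Ttbk2 (-0.22) in RNA, Cep164 (0.38) and Ankmy2 (-0.30) in footprints, and Cep164 (0.35) in footprints per mRNA, with edgeR adjusted p of 0.0864 to 0.429. Of 8 Zic and Glis relatives of the Gli factors, none passed in any comparison, and Zic5 had the smallest footprint p-value, at 24.6 CPM in mutant pools and 15.7 CPM in wild-type pools (0.64 ± 0.11, edgeR adjusted p = 0.0511). Zic2 followed in footprints (0.38), Glis3 (0.60) and Zic4 (-0.30) in RNA, Zic5 (0.43) and Zic1 (0.17) in footprints per mRNA, and Zic1 (-0.37) in the 5′ UTR ratio, with edgeR adjusted p of 0.097 to 0.639.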

How the data were processed

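Counts were deposited by the authors as whole numbers per transcript part (5′ UTR, coding sequence, coding sequence without the first 15 and last 5 codons, 3′ UTR, whole transcript), 1 column per lane, for 96 lane columns. Reads were processed with cutadapt, STAR and bedtools on mm10, per the submitters' processing notes, without versions, and no source used here states how reads that match several transcripts were treated. Lanes and runs were summed per library. The 4 run 1 lanes of mutant footprint pool 1, which held counts on 2 to 3 of 20 chromosomes looked at (the other 92 lanes on all 20), were left out. Of 122941 transcript IDs, 121271 matched GENCODE vM21 with version, 1522 without, and 148 did not match. The trimmed coding count was used, for the transcript of each gene with the highest total. Kif7 and Spop each have 2 transcripts tied for the highest.

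Tests used edgeR 4.0.16 (quasi-likelihood, TMM scaling, filterByExpr with a minimum count of 10 and total of 15, Benjamini-Hochberg over all genes tested, threshold 0.05) in R 4.3.3, with 3 pools per genotype. Footprints per mRNA used the interaction of genotype and assay over 12 libraries, and the 5′ UTR ratio the interaction of genotype and part with the library as a term. The scripts were tested on simulated data. DESeq2 1.42.0, limma-voom 3.58.1, no filter, the whole coding sequence, the transcript with the longest coding sequence, all lanes, pools left out and replicate blocks were alternatives, and 0.1 CPM the alternative to the 0.5 CPM added. Offsets for coding GC content and the transcript with the highest whole count were added after seeing the data. For pairing, deviations from group means over 13025 genes were correlated. The RNA and footprint library of a pool, which the labels' protocols say came from the same cells, had r of 0.244 to 0.611. The main fit of footprints per mRNA had no pool term, and the fit with the pool as a block was an alternative. Named were all 10 members, and of each pathway list and comparison the genes past the threshold or otherwise the 2 of smallest p, with Eif3c and the 3 nearest genes of each Gli gene. Some list genes that this rule names are not reported here. The members and lists were chosen with earlier results of these data known.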

Additional observations from a re-analysis of the deposited data

Results flagged for a closer look

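Footprints in the 3′ UTR, a part that the comparisons above do not use, stood out in mutant pool 2 for 4 of the 10 genes. Per 100 coding footprints, Gli2 had 4.12 in mutant pool 2, from 33 footprints, against 0.409 to 0.606 in the other mutant pools and 0.484 to 0.784 in wild-type pools. Gli3 had 3.6, from 51 footprints, against 0.696 to 0.957 in the other mutant pools and 0.739 to 1.28 in wild-type pools. Sufu had 9.09, from 83 footprints, against 1.93 to 2.04 in the other mutant pools and 0.849 to 1.39 in wild-type pools. Spop had 6.96, from 27 footprints, against 2.86 to 5.42 in the other mutant pools and 2.03 to 2.53 in wild-type pools. Each of the 4 was singled out because the exact 95% binomial interval of its share, which covers counting error only, lies above those of all 3 wild-type pools. The share of all genes that meet this rule is not given here, so the 4 are not set apart from other genes. Over the 10 genes together the value was 3.95 in mutant pool 2, 1.21 and 1.64 in mutant pools 1 and 3, and 0.983 to 1.21 in wild-type pools, and over all genes it was 3.7, 1.93 and 2.22 in mutant pools 2, 1 and 3, and 1.92 to 2.02 in wild-type pools. Mutant pool 2 is also the pool without which the most genes were called in RNA and footprints. The cause was not tested.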

How the results depend on the processing

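Of 538 log2 differences of single members under alternatives, 523 kept their direction and side of the threshold, 4 newly passed and 11 changed sign. The number of members called became 2 in RNA without mutant pool 2, and 1 in footprints with DESeq2 and without mutant pool 2 (0 to 2 and 0 to 1 over pools left out). The sign changes were small. In RNA they were Gli2 (-0.002), Sufu (0.02) and Kif7 (-0.03) without mutant pool 3, and Sufu without wild-type pool 2 (0.02) and with GC offsets (0.02); over pools left out Gli2 ran from -0.002 to 0.13, Sufu from -0.03 to 0.02 and Kif7 from -0.03 to 0.2. In footprints Stk36 stood at -0.0058 without mutant pool 1 (range -0.0058 to 0.22). In footprints per mRNA, Gpr161 stood at -0.04 without mutant pool 1 (range -0.04 to 0.1) and at -0.02 with GC offsets, and Kif7 at -0.05 with GC offsets. In the 5′ UTR ratio, Gli2 stood at -0.03 without wild-type pool 1 (range -0.03 to 0.18) and Gli1 at 0.04 with both parts scaled to the coding library size. With 0.1 CPM added, Gli1 footprints per mRNA in wild type stood at -2.28. The causes were not tested.

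Counts over all genes moved more. In RNA, 396 genes passed with DESeq2, 462 without a filter, 22 with the whole coding sequence, 3 with the replicate block, 2 with GC offsets and 1 to 1522 with a pool left out. In footprints the counts were 822 with DESeq2, 243 without a filter, 130 with limma-voom, 59 with the whole coding sequence, 9 with all lanes and 8 to 2336 with a pool left out. In footprints per mRNA they were 20 with DESeq2, 125 with the replicate block and 0 to 1 with a pool left out. In the 5′ UTR ratio they were 1078 without a filter, 270 without the library term, 1022 (989 higher and 33 lower, against 398 and 250) with both parts scaled to the coding library size and 43 to 1058 with a pool left out.

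Same-numbered mutant and wild-type pools were not taken as pairs: their deviations correlated at 0.047 to 0.089 in RNA, where each mutant pool correlated best with its own number, and at -0.113 to -0.036 in footprints. With the replicate number as a block, 0 members were called in RNA, footprints or the 5′ UTR ratio, with 3, 39 and 616 genes called, and the blocked fit of footprints per mRNA changed no member's call. The lowest coding footprint counts per mutant pool were 55 to 70 for Ulk3 and 69 to 87 for Gli1, which limits the precision of both.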
